A study of Sus scrofa with 8 samples.

Results

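The enzymes that carry glucose through glycolysis to pyruvate and lactate, and pyruvate through the citric acid cycle, were examined in the lining cells of the pig oviduct. Their probe sets were chosen by gene symbol: a probe set was taken when the platform annotation gave it a single symbol that named a hexokinase, glucose phosphate isomerase (GPI), phosphofructokinase or its bifunctional regulators, aldolase, TPI1, GAPDH, phosphoglycerate kinase or mutase, enolase, pyruvate kinase, phosphoglucomutase, lactate dehydrogenase, pyruvate dehydrogenase or its kinase, an enzyme of the citric acid cycle, pyruvate carboxylase or phosphoenolpyruvate carboxykinase. This rule took 69 of the 24123 probe sets of the array, for 45 of the 6765 genes named by a single symbol. Of these, 9 were GAPDH control probe sets and were described but not tested, which left 60 among the 23999 probe sets tested. No probe set carried alone the symbols of 15 further genes that the rule or its families name, among them HK2, PGAM1, PDK1, PDK2 and PFKFB3, and these were not analysed here.

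Glycolysis splits glucose into pyruvate in the cytosol: its upper steps spend ATP to phosphorylate and cleave the sugar, and its lower steps, from GAPDH to pyruvate kinase, recover ATP. Pyruvate is then either reduced to lactate by lactate dehydrogenase or turned into acetyl-CoA by the pyruvate dehydrogenase complex, which the PDK kinases switch off, and the citric acid cycle oxidizes acetyl-CoA in the mitochondrion. In the oviduct these routes supply the secretory and ciliated cells of the lining, and the pyruvate and lactate that reach the oviduct fluid are known fuels of spermatozoa and early embryos.

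Each of 4 sows received sex-sorted semen by laparoscopy, with X-spermatozoa placed in one oviduct and Y-spermatozoa in the other, and cells were scraped from both oviducts 24 h later. The sows were crossbred Landrace by Large White animals with preovulatory follicles, and the spermatozoa of each type were pooled over boars after sorting. Total RNA of each oviduct was hybridised to its own array, which gave 4 arrays with X-spermatozoa (X1 to X4) and 4 with Y-spermatozoa (Y1 to Y4), the number being that of the sow. An oviduct without spermatozoa was not part of the comparison, so each difference below is between both sperm types and not between sperm and no sperm.

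The arrays had median signals between 38.7 and 41.2 on the deposited scale, in which every array has a trimmed mean of 100. A background level was taken on each array from 81 probe sets with targets from outside the pig, as their 95th percentile, and it lay between 8.5 and 12.3. By their brightest probe set, 41 of the 45 genes had a mean signal above it. Of the 3 sets of GAPDH control probe sets for the 3′ end, middle and 5′ end of the transcript, the brightest had its highest signal at the 3′ and its lowest at the 5′ end on all 8 arrays. Its ratio of 3′ to 5′ was 6.0 on array Y1 and between 3.83 and 4.58 on the other 7 arrays, and the actin ratio was also highest on Y1, at 8.35 (5.46 to 6.61 elsewhere). The other sets, in which the middle was below the 5′ end on some or all arrays, had ratios of 1.43 to 1.75 and of 2.25 to 3.92, the latter highest on Y4. The ratio of the brightest set did not separate the groups (two-sided exact permutation p = 0.771). The hybridisation controls, transcripts from outside the pig that are added to each sample, had a mean log2 signal of 9.69 ± 0.10 (SD, n = 4) with X- and 9.98 ± 0.09 with Y-spermatozoa on the deposited scale, and were higher with Y-spermatozoa in every sow (exact permutation p = 0.0286). The median signal and the background were lower with Y-spermatozoa in every sow (exact permutation p = 0.0857 for each). Epithelial markers were bright: EPCAM ranged from 2890.5 to 3805 and OVGP1, the oviduct-specific glycoprotein of secretory cells, from 5841.4 to 9314.9. FOXJ1, a regulator of ciliated cells, was not measured, while the ciliary gene TEKT1 lay between 259.2 and 493.8. Smooth muscle markers were also present, and the sum of 4 of them ranged from 768 to 4232 over the arrays.

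**Figure D1:**
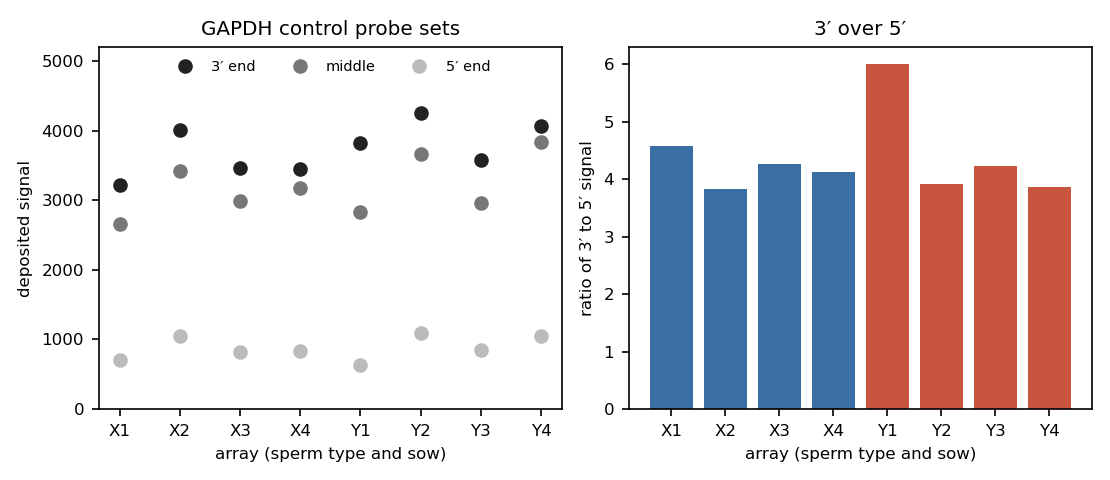
Left, deposited signal of the brightest set of 3′, middle and 5′ GAPDH control probe sets on each of the 8 arrays. Right, ratio of the 3′ to the 5′ signal on each array, blue for X-spermatozoa and red for Y-spermatozoa. Array Y1 has the highest ratio, 6.0, and the other 7 lie between 3.83 and 4.58.

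The first question was whether the enzymes differed between oviducts with Y- and with X-spermatozoa. Signals below are as deposited, and log2 differences (Y minus X) are on quantile normalized signals, from limma fitted to all probe sets tested. At an unadjusted p below 0.05, 2 of the 60 probe sets passed (3.33%): HK3, lower with Y-spermatozoa, and LDHC, higher but below background on all 8 arrays. Over all probe sets tested the share was 3.56%, made up of 1.62% on the Y side and 1.94% on the X side. With the sow as a replicate block, 3 of the 60 passed (5%), the added one being a probe set of PCK2, against 5.09% over all probe sets. After Benjamini-Hochberg adjustment over all probe sets 0 members passed in limma, as did 0% of all 23999, of which 855 had passed unadjusted. The shares called among the enzymes were thus near those over the array.

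The 41 genes above background had a median log2 difference of 0.01, with 23 higher and 18 lower with Y-spermatozoa, and the median over all probe sets above background was 0.00. Their median standard error was 0.15, against 0.18 over all probe sets above background. Of the 60 probe sets, 8 lay on the Y side in each of the 4 sows (13.3%, against 6.44% of all probe sets tested) and 3 on the X side in each (5%, against 6.71%). The 8 belonged to GAPDH, PGK1, ENO1, LDHA, PFKL, SUCLG1, ACO1 and PCK2, the last through a probe set below background on 6 arrays. The 3 belonged to HK3, IDH1 and OGDHL. With deposited signals, the groups did not overlap for 2 of the 60 (3.33%), HK3 and PGK1, against 2.3% of all probe sets.

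**Figure D2:**
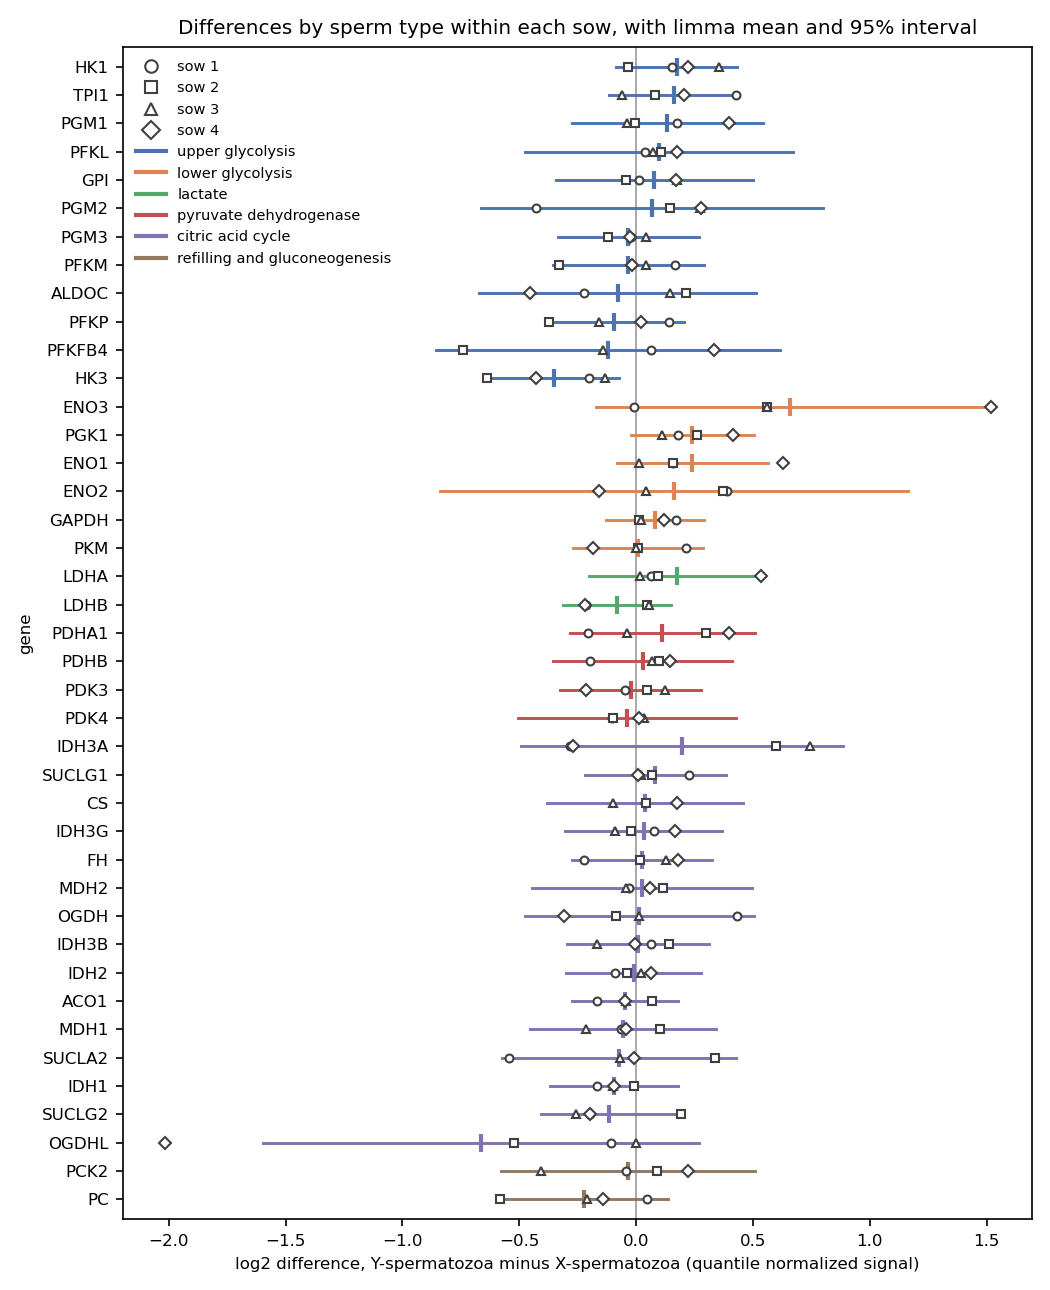
Log2 difference between the oviduct with Y-spermatozoa and that with X-spermatozoa for the 41 genes above background, by role. Open symbols are the 4 sows, the vertical tick is the limma mean and the line its 95% interval. The interval of HK3 lies below 0, those of the other 40 genes include 0, and the 6 lower glycolysis means all lie above 0.

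Hexokinases phosphorylate glucose on entry and so commit it to the cell. HK3, the isoenzyme best known from white blood cells, had signals of 105.8, 113.7, 107.6 and 108.1 with X-spermatozoa in sows 1 to 4 and of 91.6, 72.1, 96.1 and 80.1 with Y-spermatozoa. All 4 Y arrays lay below all 4 X arrays. The X values were close together, and the lowest Y values were those of sows 2 and 4. The log2 difference was -0.35 ± 0.12 (SE, n = 4 per group; 95% interval -0.63 to -0.07). Limma gave p = 0.0197 without and 0.0436 with the replicate block (adjusted p = 1), and the exact permutation p was 0.0286, the smallest that 4 against 4 arrays allow. Here and below these permutations exchange all 8 arrays and ignore that oviducts are paired by sow: sign changes within the 4 sows gave an exact p of 0.125 for HK3 and for PGK1, the smallest they can give. With a covariate in limma for the level of the added control transcripts on each array, HK3 was at -0.61 and passed. Without array Y1 the difference was -0.39 and still passed in limma. It no longer passed without sow 2, at -0.25, or without sow 4, at -0.33. Both other probe sets of HK3 were below background on all 8 arrays.

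In scraped tissue, fewer cells of a type and less RNA per cell cannot be told apart. Of 5 leukocyte markers, 4 were measured and 2 had a mean above background. Their summed signal ranged from 58.6 to 68.6 with X-spermatozoa and from 48.8 to 109.3 with Y-spermatozoa. PTPRC, the pan-leukocyte antigen, was below background on 6 arrays and had signals of 9.2, 5, 6.8 and 7.6 with X-spermatozoa and of 12.1, 15.7, 8.8 and 9.8 with Y-spermatozoa (limma p = 0.0171, exact permutation p = 0.0571). CD163, of macrophages, ranged from 17.7 to 71.9 with Y- and from 23.9 to 38.7 with X-spermatozoa. CD3E, above background on all 8 arrays, was lower with Y-spermatozoa in 3 sows and higher in 1, with a log2 difference of -0.21. CD14, below background on 4 arrays, was higher with Y-spermatozoa in 3 sows and lower in 1. The 3 measured blood markers summed to between 232.5 and 270.2 with X- and between 240.8 and 278.7 with Y-spermatozoa, of which HBB was the main part. HBM, a globin of red cells, was 12.9, 35.5, 25.1 and 15.8 with X- and 41.1, 54.2, 35 and 33.6 with Y-spermatozoa (limma p = 0.0192, and 0.0107 with the replicate block; exact permutation p = 0.0857). ALAS2, of haem synthesis in red cells, was also higher with Y-spermatozoa in every sow and was called with the block. HBB went the other way and was lower with Y-spermatozoa in every sow, with a log2 difference of -0.08. The part of leukocytes or blood in the HK3 difference was not tested.

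HK1, the hexokinase of most tissues, had a mean of 300 ± 14.2 (SD, n = 4) with X- and 339 ± 32.2 with Y-spermatozoa, a log2 difference of 0.17 ± 0.11 (SE) that missed the threshold (limma p = 0.156, exact permutation p = 0.114). In 3 of 4 sows the Y oviduct had the higher value. HK1 and HK3 thus had opposite signs, and the difference between them was not tested. Among the other 10 upper glycolysis genes above background none passed for sperm type. GPI, which isomerizes glucose phosphate, had a log2 difference of 0.08 ± 0.18 (SE), and TPI1, which interconverts the triose phosphates, 0.16 ± 0.12, and exact permutation p-values were 0.657 and 0.114. The phosphofructokinases, which set the pace of glycolysis, gave 0.10 ± 0.25 for PFKL (liver type), -0.03 ± 0.14 for PFKM (muscle type) and -0.09 ± 0.13 for PFKP (platelet type). PGM1, which links glucose phosphate with glycogen, was at 171 ± 23.7 (SD, n = 4) with X- and 189 ± 33.3 with Y-spermatozoa.

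The lower steps of glycolysis lay on the Y side without any member passing. All 6 genes above background (GAPDH, PGK1, ENO1, ENO2, ENO3 and PKM) had higher means with Y-spermatozoa, with a median log2 difference of 0.20, and 3 of them (GAPDH, PGK1 and ENO1) were so in all 4 sows. The median was 0.25 with arrays centred on their median and 0.21 on the deposited scaling, with 6 of 6 higher in each case. After quantile normalization 12178 of all 23999 probe sets tested were higher. Of the 1267 probe sets with a mean signal above 500, 620 were higher after quantile normalization, 953 with median centring and 832 as deposited, and their median differences were -0.00, 0.08 and 0.04. The hybridisation controls were also higher with Y-spermatozoa, and with them as a covariate PGK1 gave 0.30 and GAPDH 0.02, and neither passed in limma.

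PGK1, the first ATP-yielding kinase of the route, gave signals of 516.7, 488.5, 544.5 and 543.3 with X-spermatozoa and of 583.8, 594.1, 601.5 and 727.5 with Y-spermatozoa. Every Y array was above every X array, and sow 4 had the highest Y value and the largest gap. The log2 difference was 0.24 ± 0.11 (SE; 95% interval -0.02 to 0.50), with limma p = 0.0685, p = 0.0647 with the replicate block and an exact permutation p of 0.0286. It passed in limma under 5 alternatives, among them with arrays centred on their median, at 0.29, and with the prior variance allowed to follow the signal, at 0.24.

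ENO1, the ubiquitous enolase, had signals of 518.7, 462.9, 562.5 and 404.9 with X-spermatozoa and of 579.3, 518.8, 587.5 and 633.8 with Y-spermatozoa. Its groups overlapped, and the gap was widest in sow 4, in which the X oviduct was the lowest of all and the Y oviduct the highest. The log2 difference was 0.24 ± 0.14 (SE; limma p = 0.124, exact permutation p = 0.114). ENO3, the muscle enolase, was near background, at 9.9 ± 4.1 (SD, n = 4) and 14.0 ± 4.0. PKM, the pyruvate kinase at the end of the route, was at 133 ± 6.0 and 134 ± 18.4, with a log2 difference of 0.01 and a 95% interval from -0.27 to 0.29.

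GAPDH, often taken as a reference gene, had signals of 3334.9, 4121.7, 3589.1 and 3598.8 with X-spermatozoa and of 3949.1, 4421.7, 3797.7 and 4284.4 with Y-spermatozoa. The Y oviduct was the higher in each sow, yet sow 2 with X-spermatozoa exceeded both sow 1 and sow 3 with Y-spermatozoa. After quantile normalization the log2 difference was 0.08 ± 0.09 (SE; 95% interval -0.13 to 0.29) and the groups no longer overlapped (exact permutation p = 0.0286, limma p = 0.403). On the deposited scaling the difference was 0.17. Quantile normalization gives every array the same values by rank, and it made GAPDH equal on arrays Y2 and Y3, deposited at 4421.7 and 3797.7. The sum of 4 measured epithelial markers (OVGP1 of secretory cells, KRT18, KRT8 and EPCAM) was also higher with Y-spermatozoa on the deposited scaling. This sum lay between 11252 and 13724 with X- and between 13914 and 14483 with Y-spermatozoa (exact permutation p = 0.0286). After quantile normalization the log2 differences were 0.02 for OVGP1, 0.19 for KRT18, 0.12 for KRT8 and -0.01 for EPCAM, none of which passed, and both keratins were higher with Y-spermatozoa in every sow. OVGP1 was then equal on both arrays of sow 3, which were deposited at 7735.7 with X- and 9034.9 with Y-spermatozoa. The part of epithelial cells in the GAPDH values was not tested. The other GAPDH probe sets differed among themselves: 2 lay well above background with differences of 0.08 and 0.21, and 2 near background gave -0.60 and 0.89, with none passing.

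**Figure D3:**
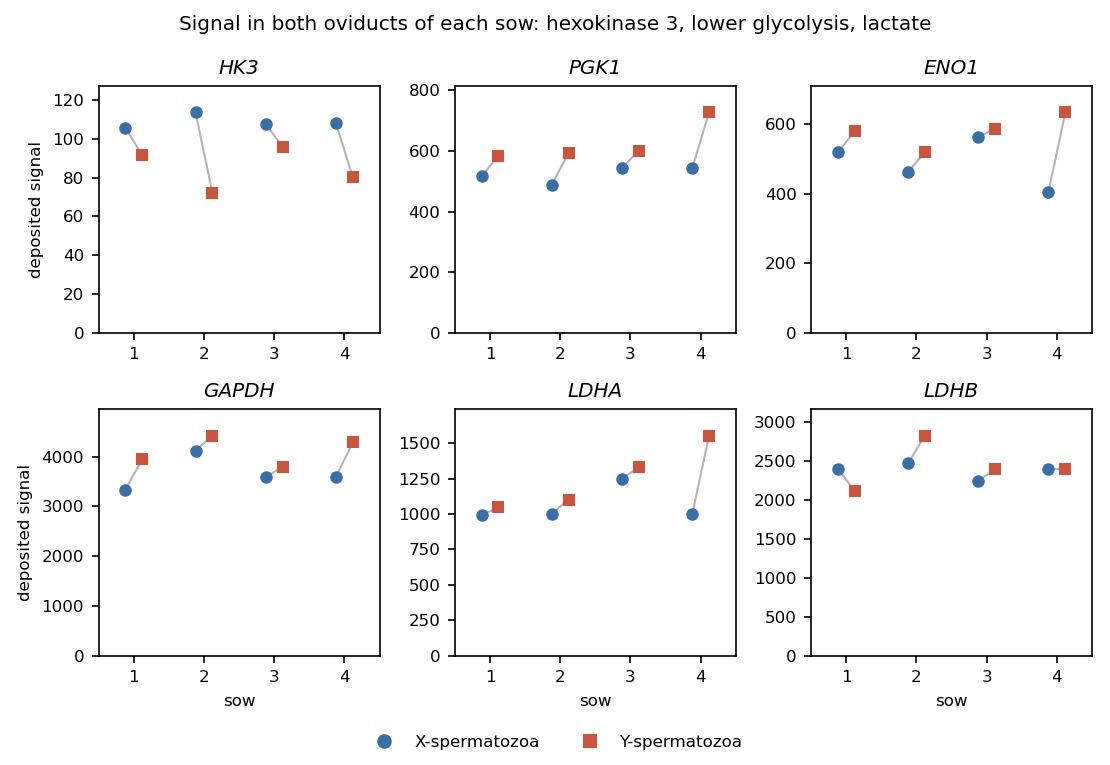
Deposited signal of HK3, PGK1, ENO1, GAPDH, LDHA and LDHB in both oviducts of each sow, blue circles for X-spermatozoa and red squares for Y-spermatozoa, with axes from 0. HK3 is lower with Y-spermatozoa in every sow and PGK1, ENO1, GAPDH and LDHA are higher, with the widest gap of PGK1, ENO1 and LDHA in sow 4.

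Lactate dehydrogenase is a tetramer of A and B subunits in most tissues. LDHA, whose subunit favours lactate formation, had signals of 989.9, 1003.5, 1248 and 999.5 with X-spermatozoa and of 1046.2, 1101.8, 1331 and 1552.6 with Y-spermatozoa. The Y oviduct had the higher value in each sow, by a small gap in sows 1 to 3 and a large one in sow 4. The log2 difference was 0.18 ± 0.16 (SE; limma p = 0.309, exact permutation p = 0.171), and it was 0.05 without sow 4. LDHB, whose subunit favours the reverse reaction, gave -0.08 ± 0.10 (SE; 95% interval -0.31 to 0.15), and this sign turned on the other scalings, with 0.06 under median centring and 0.03 as deposited.

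The isoenzymes of the male germ line were not above background in these scraped cells, taken from oviducts that had been flushed beforehand. LDHC, the lactate dehydrogenase of testis and spermatozoa, had signals of 0.5, 0.6, 2.9 and 0.8 with X-spermatozoa and of 6.2, 0.6, 9.5 and 7.7 with Y-spermatozoa. All 8 were below the background of their array, so its limma p of 0.0373 (0.0236 with the replicate block; exact permutation p = 0.143) compares values below background and no fold is given. Flooring signals at background replaces all 8 values by the background levels, so that fit holds no signal of LDHC. PGK2, the testis phosphoglycerate kinase, lay between 0.5 and 5.3 and was also below background on all 8 arrays. GAPDHS, the sperm form of GAPDH, was not measured. Of 7 markers of spermatozoa 4 were measured: PRM1 and ODF1 were below background on all 8 arrays, although PRM1, at 0.8 to 1.2 with X- and 1.5 to 3.1 with Y-spermatozoa, passed in limma as LDHC did, while PRM2 and TNP2 had means of 13.4 and 15.1, just above it, and the 4 summed to between 26.9 and 39.8 with X- and between 23.5 and 37.5 with Y-spermatozoa.

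None of the 4 measured genes of the pyruvate dehydrogenase step passed for sperm type, and their median log2 difference was 0.00. PDHA1 and PDHB encode the catalytic first component of the complex. PDHA1 had a log2 difference of 0.11 ± 0.17 (SE) and PDHB one of 0.03 ± 0.16, and in both the Y oviduct was lower in sow 1 and higher in sows 2 and 4. The kinases that switch the complex off gave -0.02 ± 0.13 for PDK3 and -0.04 ± 0.20 for PDK4, so 95% intervals reached from -0.32 to 0.28 and from -0.51 to 0.43.

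None of the 19 probe sets of the citric acid cycle passed for sperm type in limma. Its 15 genes were all above background and had a median log2 difference of 0.01, with 8 higher and 7 lower with Y-spermatozoa. The brightest was ACO1, the cytosolic aconitase that also acts as an iron regulatory protein, at 1019 ± 45.3 (SD, n = 4) with X- and 1013 ± 84.7 with Y-spermatozoa. Its second probe set gave 0.23 ± 0.13 (SE), with the Y oviduct higher in each sow, whereas the brightest gave -0.05 ± 0.10 and was lower in 3. OGDH, the first component of the oxoglutarate dehydrogenase complex, was at 933 ± 69.5 and 975 ± 271. Its Y arrays spread from 737.8 in sow 4 to 1347.9 in sow 1. IDH2, the mitochondrial NADP-dependent isocitrate dehydrogenase, gave -0.01 ± 0.12 (SE), and its cytosolic counterpart IDH1 gave -0.09 ± 0.12 and was lower in all 4 sows. OGDHL, a relative of OGDH, was dim, with 17.3, 21.8, 21.3 and 21.5 with X-spermatozoa and 15.5, 14.2, 20.7 and 5.1 with Y-spermatozoa. It too was lower in all 4 sows, by -0.66 ± 0.40 on the log2 scale (limma p = 0.140, exact permutation p = 0.0571), with the lowest value, in sow 4, below background.

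IDH3G, a subunit of the NAD-dependent isocitrate dehydrogenase of the cycle, was listed by the study through another probe set, which has no symbol in the annotation used here. The annotated probe set gave 92.1 ± 10.6 (SD, n = 4) with X- and 93.6 ± 11.8 with Y-spermatozoa, a log2 difference of 0.03 with a 95% interval from -0.30 to 0.37. The probe set without a symbol had signals from 1.1 to 6.7, below background on all 8 arrays (exact permutation p = 0.2, limma p = 0.204). Neither passed.

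Pyruvate carboxylase (PC), which refills the cycle from pyruvate, had signals of 38.8, 53.5, 49.1 and 53.8 with X-spermatozoa and of 39.5, 34.3, 41.2 and 48.2 with Y-spermatozoa. It was lower in 3 of 4 sows (-0.22 ± 0.15, SE; limma p = 0.193, exact permutation p = 0.2). PCK2, the mitochondrial phosphoenolpyruvate carboxykinase, is also listed by the study and has 3 probe sets, all close to background. The brightest gave 12.4, 16, 12.2 and 14.1 with X- and 11.5, 16.1, 8.6 and 15.8 with Y-spermatozoa, a log2 difference of -0.04 ± 0.23 (SE). Another, below background on 6 of 8 arrays, gave 5.1, 1.8, 6.7 and 6.6 with X- and 7.0, 2.3, 13.2 and 12.8 with Y-spermatozoa. Its 4 sows differed more from each other than its oviducts, and it passed with the replicate block (limma p = 0.00349, adjusted p = 0.895) and not without it (p = 0.254, exact permutation p = 0.257) or with the sow as a random block (p = 0.137). With signals floored at background its log2 difference was 0.03 in place of 0.80 and did not pass. The third, below background on 6 arrays, was higher with Y-spermatozoa in 2 sows and lower in 2. PCK1, the cytosolic form, was below background on 6 arrays.

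The second question was which of the enzymes differed between sows by more than between the oviducts of a sow. Limma's F test of the sow, beside sperm type, called 9 of the 60 probe sets at an unadjusted p under 0.05 (15%), against 14.2% of all probe sets tested. After adjustment 0 passed, as did 0% of all probe sets. The smallest adjusted p was 0.146 among the members and 0.0744 over the array. The 9 belonged to ENO2, PFKL, GPI, PGM2, PDK4, CS, MDH2, PCK1 and PCK2, the last pair by probe sets that were below background on 6 arrays. Among members above background the median range between sow means was 0.38 on the log2 scale, against 0.45 over all probe sets above background.

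ENO2, the enolase best known from neurons and endocrine cells, varied the most among the 7 that were above background on all arrays. In the order of sows 1 to 4 its signals were 220.8, 105.1, 285.6 and 132.8 with X-spermatozoa and 287.8, 135, 294 and 118.5 with Y-spermatozoa. Both oviducts of sows 1 and 3 were above every oviduct of sows 2 and 4. The range between sow means was 1.27 on the log2 scale (limma F test, adjusted p = 0.193), while the difference by sperm type was 0.16 ± 0.43 (SE).

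PFKL had signals of 166.2, 114.2, 216.1 and 145.7 with X- and of 171.8, 122.6, 226.6 and 164.9 with Y-spermatozoa, so the sows did not overlap and ran from sow 3, the highest, through 1 and 4 to 2. Its range was 0.90 (limma F test, adjusted p = 0.215). GPI had signals of 769.4, 621.9, 781.4 and 587.3 with X- and of 793.7, 609, 906.7 and 675.3 with Y-spermatozoa (range 0.50, adjusted p = 0.331). In GPI, as in ENO2 and PFKL, both oviducts of sows 1 and 3 were above those of sows 2 and 4. This split of the sows, here and below, was not among the planned comparisons. The share of all probe sets that show it was not counted. PGM2, a phosphoglucomutase of sugar phosphate metabolism, had another order: it was lowest in sow 3, at 89.6 and 105.9, and highest in sow 4, at 187 and 228.4 (range 1.11, adjusted p = 0.313).

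PDK4, the kinase that holds back pyruvate oxidation in fasted tissues, had signals of 646, 457.5, 560.5 and 414.6 with X- and of 608.2, 429, 592.5 and 420.6 with Y-spermatozoa. Sows 1 and 3 were again above sows 2 and 4 (range 0.59, adjusted p = 0.276), and its second probe set, which did not pass unadjusted, also had both oviducts of sows 1 and 3 above those of sows 2 and 4. CS, the citrate synthase that opens the cycle, had signals of 302, 401.6, 308.6 and 380.3 with X- and of 309.4, 414, 289.6 and 433.3 with Y-spermatozoa. MDH2, the mitochondrial malate dehydrogenase that closes it, had 206.2, 290.4, 226 and 288.6 with X- and 203.4, 316.5, 218.6 and 300.5 with Y-spermatozoa. Both were higher in each oviduct of sows 2 and 4 than in any of sows 1 and 3, the opposite of PDK4, with ranges of 0.45 (adjusted p = 0.333) and 0.57 (adjusted p = 0.278). The cytosolic MDH1 and the dehydrogenase subunit PDHB followed CS and MDH2 in this, with 0.45 and 0.42, and did not pass unadjusted, nor did the second probe set of CS, in which sow 4 was highest and sow 1 lowest.

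**Figure D4:**
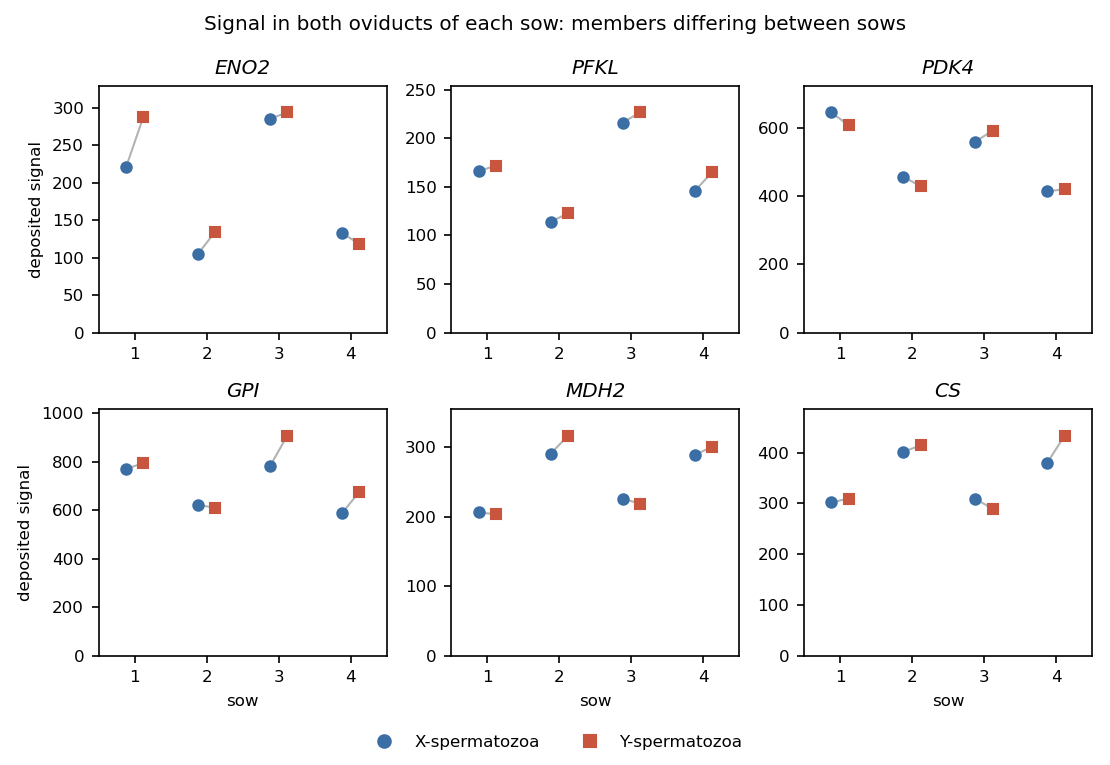
Deposited signal of ENO2, PFKL, PDK4, GPI, MDH2 and CS in both oviducts of each sow, blue circles for X-spermatozoa and red squares for Y-spermatozoa, with axes from 0. ENO2, PFKL, PDK4 and GPI are higher in sows 1 and 3 and MDH2 and CS in sows 2 and 4, and both oviducts of a sow lie close together.

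Of the measured cell type markers, TEKT1, KRT18, VWF and ALAS2 passed limma's F test of the sow unadjusted and the others did not. Over all probe sets tested 14.2% passed. TEKT1, a ciliary gene, had signals of 408.2, 271.9, 402.3 and 259.2 with X- and of 457.5, 326.8, 493.8 and 288.2 with Y-spermatozoa, with sows 1 and 3 above sows 2 and 4 as in ENO2 and PDK4 (limma F test, adjusted p = 0.222, passing unadjusted). KRT18, an epithelial keratin, had 581, 672.9, 432.8 and 741.4 with X- and 656.1, 739.6, 544.4 and 874.5 with Y-spermatozoa, with sows 2 and 4 above sows 1 and 3 (adjusted p = 0.274, passing unadjusted). VWF, of endothelium, also passed unadjusted (adjusted p = 0.296), with 34.7, 67.7, 34.2 and 39.2 with X- and 41.1, 89.2, 38.6 and 78.2 with Y-spermatozoa. ALAS2 passed unadjusted as well (adjusted p = 0.146). The 3 measured ciliated markers, TEKT1 among them, summed to 2257, 2255, 2411 and 1939 with X- and 2456, 2362, 2854 and 2022 with Y-spermatozoa. Within each sperm type, sows 1 and 3 lay above sows 2 and 4 in this sum, as for TEKT1, but X1 barely exceeded X2. CAPS did not keep this order: sow 2 exceeded sow 1, at 925.8 against 746.6 with X- and 932.1 against 916.7 with Y-spermatozoa. TPPP3 kept it with X- but not with Y-spermatozoa, where sow 2, at 1103.5, exceeded sow 1, at 1081.6. The sum of the 4 epithelial markers did not follow the order of KRT18. It was 11252, 13724, 12340 and 11340 with X- and 14483, 13988, 13914 and 14250 with Y-spermatozoa, and OVGP1 was lowest in sow 4. KRT8 did follow KRT18, with sows 2 and 4 at 1308.8 to 1801.3 and sows 1 and 3 at 1148.8 to 1296.2, but did not pass unadjusted. EPCAM did not, with Y1, at 3215.9, above Y2, at 3197.7. The smooth muscle sum differed widely within sows 3 and 4, with 1257, 4232, 3497 and 2294 with X- and 768, 3007, 901 and 4044 with Y-spermatozoa. Their part in the differences of the enzymes between sows was not tested. The sow in which a gene above background was highest was sow 1 for 8 genes, sow 2 for 12, sow 3 for 14 and sow 4 for 7, so no sow was the highest for most of the 41. Over all probe sets above background, sows 1 to 4 were the highest for 27.1%, 25.1%, 24.7% and 23.1%.

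**Figure D5:**
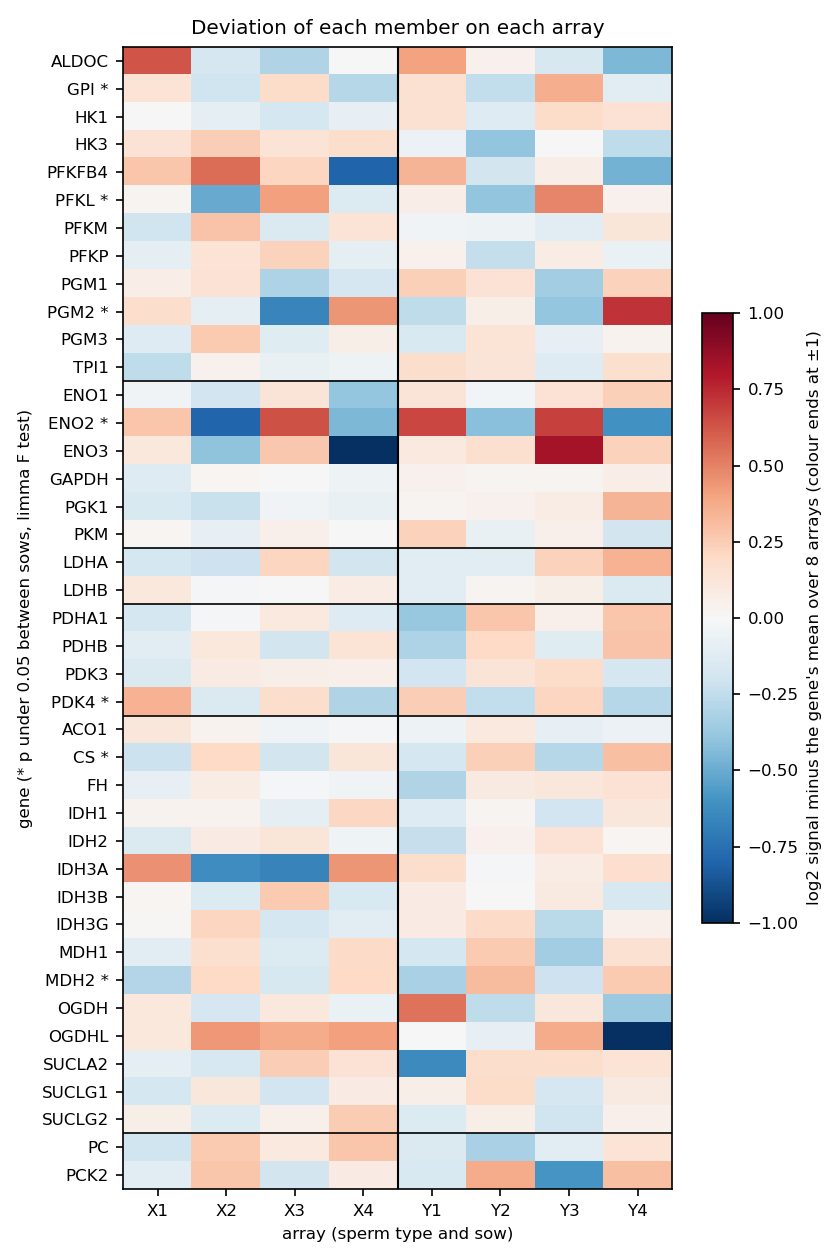
Log2 signal of the 41 genes above background (rows, by role) on the 8 arrays (columns), as the deviation from the mean of the gene over the 8 arrays, red above and blue below, with the colour scale ending at 1 and -1. An asterisk marks p under 0.05 between sows in limma's F test, for 7 genes here, and HK3 is above its mean on the 4 X arrays and lowest on Y2 and Y4.

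Genes next to these routes were read from a second list of 74 genes, of which 48 were measured and 47 had a mean above background. They covered glucose and lactate transport, the pentose phosphate pathway, glycogen, gluconeogenesis and further subunits and linked enzymes. For sperm type limma called 1 of the 48 at an unadjusted p below 0.05, on the X side, and 0 on the Y side, against 1.94% and 1.62% of all probe sets, and 0 after adjustment. The gene was FBP2, the muscle form of fructose bisphosphatase, with signals of 22.5, 19.5, 28.5 and 17.9 with X- and of 12.9, 7.7, 11.8 and 20.9 with Y-spermatozoa. It was lower in 3 of 4 sows (-0.72 ± 0.29, SE; limma p = 0.0399, exact permutation p = 0.0857), sow 4 went the other way, and it did not pass with the replicate block.

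SLC16A3, the carrier that exports lactate from glycolytic cells, had signals of 29.3, 19.8, 35 and 29.7 with X-spermatozoa and of 35.6, 24.6, 44.2 and 39.8 with Y-spermatozoa. The Y oviduct was higher by a similar step in each sow, over wide differences between the sows. The log2 difference was 0.39 ± 0.23 (SE; exact permutation p = 0.171, limma p = 0.135, p = 0.00820 with the replicate block, adjusted p = 0.895, and p = 0.0582 with the sow as a random block). It was the single gene of this list called with the block, against 5.09% of all probe sets. The other 4 with the smallest p for sperm type, GYS1, SLC37A4, SLC2A2 and SLC2A12, missed the threshold, with GYS1 at 0.32 ± 0.20 (SE) on the log2 scale, and SLC2A2, the glucose carrier of liver, was below background on all 8 arrays.

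Between sows 11 of the 48 passed limma's F test at an unadjusted p below 0.05 (14.2% of all probe sets did) and 0 after adjustment, and 5 of the 11 were carriers. SLC5A1, the sodium-coupled glucose carrier of epithelia, had signals of 55, 91.6, 52.2 and 76.8 with X- and of 45.3, 104.3, 49.1 and 80.1 with Y-spermatozoa (limma F test, adjusted p = 0.215). It was higher in both oviducts of sows 2 and 4 than in those of sows 1 and 3, as CS and MDH2 were. SLC2A1, the widespread glucose carrier, was highest in sow 3, at 243.8 and 267.6, and between 173.5 and 206.2 elsewhere (adjusted p = 0.311).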

How the data were processed

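The 8 arrays were Affymetrix arrays. Per the labels, the deposited intensities were computed by the authors with MAS5 (version 5.1), and the deposited signals are linear and scaled to a trimmed mean of 100. The methods name RMA, which these values are not. Signals were quantile normalized over all 24123 probe sets, floored at 1 and log2 transformed, 124 control probe sets were left out, and limma 3.58.1 in R 4.3.3 (lmFit, eBayes) was fitted to the other 23999, with Benjamini-Hochberg adjustment over all. Scripts were tested on simulated data. Figures were drawn in Python 3.11.15 with matplotlib 3.10.9.

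Both oviducts of a sow share a replicate number. Deviations from the group means correlated between them by 0.13 to 0.19 in the 4 sows, and the sow was a block in an alternative fit. Symbols came from the platform annotation (10099 probe sets with 1 symbol), and all 69 matched a gene of RefSeq Sscrofa11.1. Genes were named by call in either fit, by the smallest adjusted p between sows (up to 10), by the brightest probe sets of each role (up to 4 genes) and by the smallest p in the second list (up to 6), beside PCK2, IDH3G and the germ line isoenzymes. ACO1, IDH1, OGDHL, SUCLG1, SLC5A1, SLC2A1 and other genes outside this rule, and the marker values, were chosen after their values were seen. The members, lists and background level were chosen with earlier results of these data known. The p-values rest on 4 arrays per group, whose number limits the precision, and sequences were not used here.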

Additional observations from a re-analysis of the deposited data

Results flagged for a closer look

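In 6 of 62 groups of 4 arrays (31 named probe sets above background, in each sperm type), the highest or lowest array stood apart from the other 3 by Dixon's criterion, which flags about 1 in 20 groups by chance. With Y-spermatozoa, TPI1 was low in sow 3 (702.7, against 868.2 to 879.1), HK1 was low in sow 2 (291.7, against 350.9 to 363.2), PGK1 was high in sow 4 (727.5, against 583.8 to 601.5) and ACO1 was high in sow 2 (1135.4, against 942 to 995.3). With X-spermatozoa, LDHA was high in sow 3 (1248, against 989.9 to 1003.5) and PDK3 was low in sow 1 (62.9, against 71.5 to 74.1).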

How the results depend on the processing

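Of the 36 named results, 927 values were computed under alternatives: 867 stayed on the same side of the threshold, 33 no longer passed and 26 newly passed. The remaining value, that of LDHC with the floor at background, was -0.14 and compares background levels only. The sign was kept by 842 of the 927. The other 85 were spread over 21 results, and apart from that of LDHC none of them passed in either fit. The count of members called for sperm type was 2, and 1 with the filter above the median signal or with hybridisation controls as a covariate. It was 3 with the replicate block, and without each array or sow it ranged from 0 to 4. The count between sows was 9, and 16 with a pseudocount of 16 or the floor at background (20.01% and 20.6% of all probe sets), 19 with a variance trend (19.5%), and 5 to 8 without each array or sow, with 5 without Y replicate 3 or without sow 3. After adjustment ENO2 passed with the pseudocount (adjusted p = 0.0216), ENO2 and PFKL with the trend (adjusted p = 0.0450 and 0.0473), and ENO2, PFKL and PGM2 with the filter (adjusted p = 0.00879, 0.0239 and 0.0481), under which 13 of 42 members passed unadjusted, against 29.4% of all probe sets. The second list had 1 call, 0 with the filter or the covariate, and 0 to 2 without each array or sow. HK3 missed limma's threshold in all 4 replicate block fits without a sow, and PGK1 passed under 5 alternatives. The causes were not tested. Signals near background limit PCK1, PCK2, ENO3 and PGAM2.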
